A study of Bos indicus with 12 samples.

Results

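The ZNF genes, numbered members of the zinc finger class of DNA- and RNA-binding proteins, were followed in blood RNA of 12 Bos indicus cows. A gene was a member when its identifier matched a RefSeq symbol made of ZNF and a number and when it had a count of 10 or more in at least 3 libraries. The table held 26229 identifiers, of which 231 carried a ZNF symbol, and 209 of these were members. The other 22 ZNF symbols had too few counts. The study set high-yielding against low-yielding cows within each of 2 breeds of indigenous cattle, in a search for mechanisms of milk production. The 4 groups of 3 cows each were high-yielding Gir, low-yielding Gir, high-yielding Shweta Kapila and low-yielding Shweta Kapila, and all cows were past their first lactation, in the second or the third. Yield classes were set within a breed from lactation records, so a high-yielding cow of one breed need not give more milk than a low-yielding cow of the other, and milk yields in kilograms were not used here. Every library is from its own cow, and the cows are numbered 1 to 3 within a group.

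Most ZNF proteins carry tandem Cys2-His2 zinc fingers, each of which folds around a zinc ion and can contact a short stretch of DNA or RNA. Members were set by symbol, so not every one need carry such an array. Many of them also carry a KRAB domain, which recruits the corepressor TRIM28, the histone methyltransferase SETDB1 and heterochromatin protein, and KRAB proteins of this kind silence transposable elements and imprinted loci. Others have no KRAB domain and act as ordinary promoter factors, as ribosome or splicing factors, or as SUMO and ubiquitin ligases. Most have been studied in human or mouse cells only, and the roles given below come from those species.

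Totals ran from 14.2 to 27.2 mega-counts (M) per library, and a count of 10 stood for between 0.368 and 0.704 CPM, the count in a library scaled to 1 M. All CPM of genes below are also TMM-normalised. The 3 libraries above 22 M were all from Shweta Kapila: high 3, low 1 and low 2. They also stood apart in their share of counts on 37 unnamed short identifiers, at 9.00% to 13.1%, against 4.54% to 5.57% in the other 3 Shweta Kapila libraries and 6.20% to 8.70% in Gir. The labels name peripheral blood mononuclear cells and a whole-blood RNA kit. Markers of monocytes, neutrophils, B cells, T cells, NK cells, platelets and erythroid cells were all present, with 30 of 42 listed markers past the filter and none of the 30 at 0 in a library. In blood, fewer cells of a type and less RNA per cell cannot be told apart.

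Most ZNF members gave reads in every cow. Of the 209 members, 190 had at least 10 counts in all 12 libraries, and each library had between 199 and 205 of them at that level. All 209 passed the filter used for testing. Together they held 0.490 ± 0.0144% of the counts in high-yielding and 0.507 ± 0.0275% in low-yielding Gir cows, and 0.490 ± 0.0664% with high and 0.494 ± 0.0193% with low yield in Shweta Kapila (SD, n = 3 each). The median CPM of a member over the 12 cows was 13.5, beside 14.9 for all 15420 genes tested, and ranged over the members between 0.375 and 253 CPM. Of the members, 85 had a median under 10 CPM and 7 had one over 100 CPM. CPM is not divided by transcript length, so these values say how many reads a gene gave and do not order the genes by level. Just inside the rule, the count of the third library from the top was 11 for ZNF185, 12 for ZNF546 and 15 each for ZNF782 and ZNF750. Just outside it, that count was 9.26 for ZNF285, 7.08 for ZNF891 and 6 for ZNF521, a haematopoietic progenitor factor.

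Cows of the same group lay closer together in Gir than in Shweta Kapila. The median SD of a member's log2 CPM over 3 cows was 0.24 in high-yielding and 0.26 in low-yielding Gir cows, against 0.51 in high-yielding and 0.55 in low-yielding Shweta Kapila cows. Over all genes tested the same SDs were 0.26 and 0.27 in Gir, against 0.48 and 0.55 in Shweta Kapila. Among 198 members with a median of at least 1 CPM, the ratio of the highest to the lowest cow had a median of 2.92, beside 2.95 for the 13394 genes at that level. It exceeded 4 for 61 of the 198 members (30.8%, beside 30.8% of genes) and stayed under 2 for 37. Shweta Kapila low 1 was the lowest cow for 66 and the highest for 43 of the 198, and Shweta Kapila high 1 was the lowest for 57 and the highest for 38.

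Many members, like many of all genes tested, split the 6 Shweta Kapila libraries by size rather than by yield class. The share of short identifiers divides these libraries in the same way. In the 3 libraries above 22 M, 67 of 209 members (32.1%) were lower than in every one of the other 3 libraries, and 35 (16.7%) were higher than in every one. Over all genes tested these shares were 24.6% lower and 21.4% higher, so division without overlap was common in the whole table. The split crosses yield classes, with 1 high-yielding and 2 low-yielding cows on the side of the large libraries, and it is a grouping by library size that the study did not make. Scaled by total count alone, the members divided as 70 lower and 18 higher. The shares of all genes under that scaling were not worked out, so this count has no background beside it. Cell markers did not divide this way as a rule: of the 30, 3 were higher and 5 lower in the large libraries.

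ZNF579 (identifier 109571850) had the lowest value of the 209 in the large libraries relative to the others. It stood at 16.5, 5.16 and 7.96 CPM in Shweta Kapila high 3, low 1 and low 2, against 84.7, 79.0 and 71.3 CPM in Shweta Kapila high 1, high 2 and low 3. The 6 Gir cows lay between 40.1 and 66.0 CPM, below all 3 of the smaller Shweta Kapila libraries and above all 3 of the large ones. ZNF687 (identifier 109555069), which works with ZNF592 and the chromatin reader ZMYND8, had 30.1, 16.7 and 20.4 CPM in the large libraries and 59.4, 42.3 and 55.7 CPM in the other Shweta Kapila libraries. ZNF862 had 10.0, 4.89 and 4.88 CPM in the large and 22.3, 17.5 and 21.9 CPM in the other libraries. ZNF74 had 28.2, 7.47 and 6.12 CPM in the large and 44.3, 38.9 and 66.2 CPM in the other libraries. For ZNF74 the gap between the sides was only that between 28.2 CPM in Shweta Kapila high 3 and 38.9 CPM in high 2. On the other side, ZNF638 (identifier 109565947), an RNA-binding nuclear protein that in human cells silences unintegrated retroviral DNA, had 324, 442 and 349.8 CPM in the large libraries and 119, 167 and 140.5 CPM in the others. All 3 large libraries were above the other 3. ZNF326, a subunit of the DBIRD complex that links RNA polymerase II to splicing, had 118, 182 and 137 CPM in the large and 63.7, 57.2 and 59.1 CPM in the other libraries. ZNF148, a factor of GC-rich promoters, had 95.2, 174 and 96.6 CPM in the large and 32.7, 71.8 and 41.2 CPM in the other libraries, and the closest cows across the split stood at 95.2 CPM in Shweta Kapila high 3 and 71.8 CPM in high 2. ZNF644, a partner of the histone methyltransferases G9a and GLP, had 81.5, 152 and 85.4 CPM in the large and 26.3, 78.9 and 31.2 CPM in the other libraries, so that Shweta Kapila high 2 almost met high 3. ZNF579, ZNF74 and ZNF862 were picked for showing here after their values were seen.

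**Figure D1:**
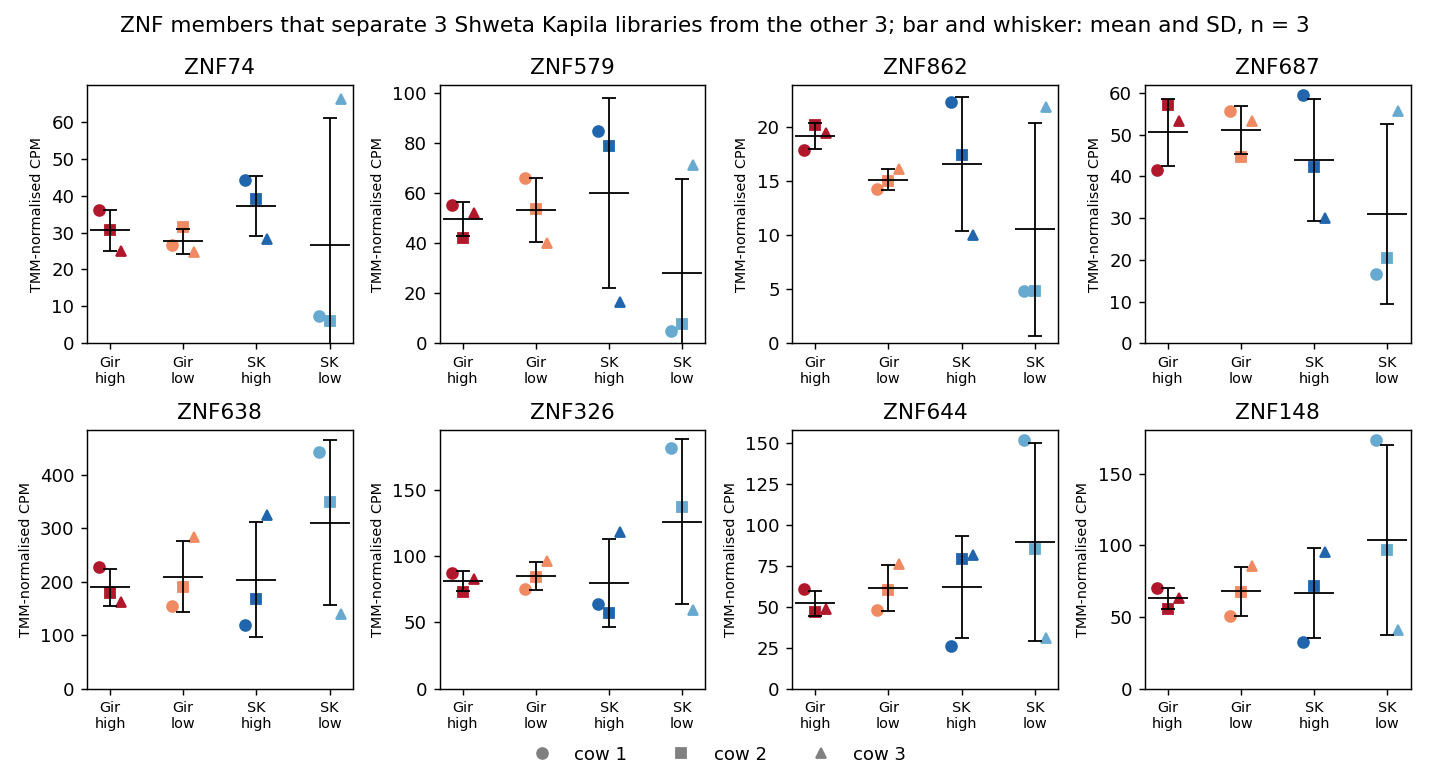
TMM-normalised CPM (y axis, linear from 0) of 8 ZNF members in each cow by group (x axis); the horizontal line is the mean and the whisker the SD of 3 cows, with a whisker that would pass below 0 ending at the axis. In the upper row Shweta Kapila high 3, low 1 and low 2 lie at the bottom of their groups (ZNF579 at 16.5, 5.16 and 7.96 CPM), and in the lower row they lie at the top, while the Gir cows stay close together.

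For the members that divided, the mean of each side of the split was set against the 6 Gir cows. Each side was counted by itself, so members with both sides beyond the Gir cows were not counted. These members were taken because their Shweta Kapila libraries divided, and the same counts were not made over all genes. The counts below therefore do not set ZNF members apart from other genes. Of the 67 members lower in the large libraries, the mean of those 3 libraries lay below all 6 Gir cows for 61, and the mean of the other 3 lay above all 6 Gir cows for 33. The median difference on the log2 CPM scale was −1.18, large libraries minus the others. Of the 35 members higher in the large libraries, the mean of these lay above all Gir cows for 23 and the mean of the others below all Gir cows for 12, with a median difference of 0.84. The share of short identifiers moved with the same split, and its part in these values was not tested.

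**Figure D2:**
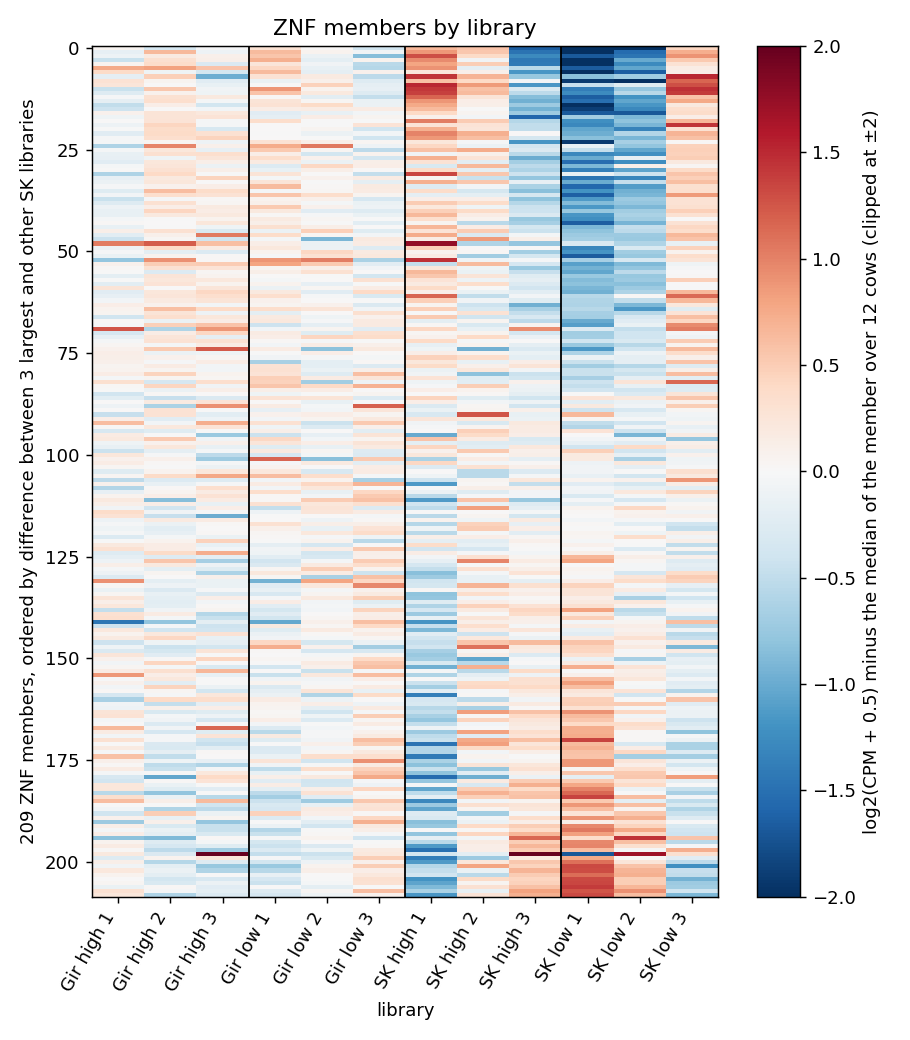
Each row is 1 of the 209 ZNF members and each column a library (x axis, by group); colour gives log2(CPM + 0.5) minus the median of that member over the 12 cows, limited to ±2, and rows are ordered by the difference between the 3 large and the other 3 Shweta Kapila libraries (y axis, rank). Blue at the top and red at the bottom mark Shweta Kapila high 3, low 1 and low 2, the reverse marks high 1 and low 3, and the 6 Gir columns stay pale.

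The 10 members of widest range over cows included several with few reads. ZNF215 (identifier 109569976), an imprinted KRAB gene in humans, spanned the widest range among those with more than 100 counts in every library. It stood at 26.5, 18.7 and 139 CPM in high-yielding and 16.4, 16.9 and 26.6 CPM in low-yielding Gir cows, and at 18.0, 19.9 and 199 CPM in high-yielding and 6.76, 75.3 and 28.9 CPM in low-yielding Shweta Kapila cows. Gir high 3, Shweta Kapila high 3 and Shweta Kapila low 2 were far above the other 9 cows, and the highest cow had 29.5 times the CPM of the lowest. ZNF584 spanned 0.356 CPM in Shweta Kapila low 1 to 6.77 CPM in Shweta Kapila high 1 (19.0 times), and ZNF593, a factor of large ribosomal subunit assembly, spanned 0.445 CPM in Shweta Kapila low 1 to 6.86 CPM in Gir low 1 (15.4 times). Between Shweta Kapila low 1 and high 1 lay also ZNF579 (16.4 times), ZNF213 (12.3 times) and ZNF324 (11.3 times). ZNF446 spanned 12.4 times, from 0.149 CPM in Shweta Kapila high 3 to 1.86 CPM in Gir high 3. ZNF354C spanned 10.9 times, from 0.232 CPM in Gir high 1 to 2.53 CPM in Gir low 3. ZNF793 had 1 count (0.0633 CPM) in Shweta Kapila high 1 and 2.11 CPM in low 3, a ratio of 33.4 that rests on that single count. ZNF219 had no count in Shweta Kapila low 1 and 2.47 CPM in high 1, and no fold is given.

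In Shweta Kapila, the comparison of high-yielding with low-yielding cows passed the test for none of the 209 members (edgeR's quasi-likelihood test with Benjamini-Hochberg adjustment over 15420 genes, lowest adjusted p of a member = 0.631), and 0% of all genes passed. At an unadjusted p under 0.05 stood 2 members on the higher and 2 on the lower side, 0.957% each, beside 4.05% higher and 2.93% lower of all genes. DESeq2 also called 0 members, and 0.337% of all genes. The members' median log2 fold change was 0.03, with 111 above and 98 below 0, beside a median of −0.02 over all genes. The median SE of a member's log2 fold change was 0.37. Log2 fold changes are given below with their SE.

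ZNF783 (identifier 109557766), a KRAB gene, had the lowest p among the members. Its CPM was 22.3, 18.4 and 20.4 in high-yielding and 10.3, 11.4 and 14.2 in low-yielding Shweta Kapila cows. All 3 high-yielding cows lay above all 3 low-yielding ones. The log2 fold change was 0.77 ± 0.24, with an unadjusted p of 0.0078 and an adjusted p of 0.631 (edgeR). ZNF740 had 93.9, 90.1 and 78.8 CPM in high-yielding and 65.6, 65.1 and 71.7 CPM in low-yielding cows, again without overlap, with a log2 fold change of 0.38 ± 0.18. ZNF641 separated them as well, at 6.71, 9.81 and 6.35 CPM in high-yielding and 4.76, 6.07 and 5.54 CPM in low-yielding cows. ZNF275 and ZNF282 did so on the higher side and ZNF391 and ZNF546 on the lower side, of which ZNF275, ZNF282 and ZNF391 were named after their values were seen. These 5 higher and 2 lower members compare with 3.51% and 3.7% of all genes that did not overlap in those directions.

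ZNF76 and ZNF7 were higher in high-yielding Shweta Kapila cows on average but overlapped. ZNF76, a relative of ZNF143 that activates promoters of small nuclear RNA and protein-coding genes, had 72.3, 59.4 and 42.0 CPM in high-yielding and 29.4, 29.3 and 50.6 CPM in low-yielding cows (log2 fold change 0.67 ± 0.28). Its low values were Shweta Kapila high 3, low 1 and low 2, the large libraries, and without these the log2 fold change was 0.38. ZNF7, a KRAB gene, had 35.4, 39.8 and 25.6 CPM in high-yielding and 17.5, 17.3 and 31.3 CPM in low-yielding Shweta Kapila cows, and its log2 fold change of 0.61 ± 0.28 became 0.27 without the large libraries and 0.95 without Shweta Kapila low 3. ZNF304, a KRAB repressor that recruits TRIM28 to silenced tumour suppressor genes in human cancer cells, had 15.1, 18.7 and 13.0 CPM in high-yielding and 8.67, 10.6 and 13.2 CPM in low-yielding cows (0.52 ± 0.26, or 0.25 with the share of short identifiers as a covariate). T cell markers had the same sign as these higher members, 6 of 6 with a median log2 fold change of 0.79 (0.55 without Shweta Kapila low 3) and 4 of 6 at an unadjusted p under 0.05. Their summed levels were 2992 to 4427 CPM in high-yielding and 1578 to 2810 CPM in low-yielding Shweta Kapila cows, with none of the 6 at 0, and their part in the values of these members was not tested.

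On the lower side stood ZNF608 (identifier 109561850), a paralogue of ZNF609 that represses Rag genes in mouse thymocytes. It had 1.39, 2.29 and 4.59 CPM in high-yielding and 4.31, 7.45 and 9.31 CPM in low-yielding Shweta Kapila cows, with 1 high-yielding cow above the lowest low-yielding cow. The log2 fold change was −1.33 ± 0.51, with an unadjusted p of 0.0231 and an adjusted p of 0.655 (edgeR), and it was −2.32 without the large libraries. B cell markers had the same sign, 6 of 6 with a median log2 fold change of −1.09 and 3 of 6 at an unadjusted p under 0.05, at summed levels of 565 to 687 CPM in high-yielding and 594 to 2405 CPM in low-yielding cows, with no B cell marker at 0. Without Shweta Kapila low 3 that median was −0.08, with 2 of 6 at an unadjusted p under 0.05. Their part in the ZNF608 value was not tested. ZNF106, an RNA-binding protein needed in mouse muscle and nerve, had 80.8, 122 and 154 CPM in high-yielding and 206, 206 and 142 CPM in low-yielding cows (−0.64 ± 0.28, −0.42 without Shweta Kapila high 1). ZNF330, a nucleolar protein, had 17.7, 28.1 and 53.0 CPM in high-yielding and 78.9, 47.6 and 40.0 CPM in low-yielding cows. Its log2 fold change of −0.75 ± 0.39 became −0.44 without high 1, −0.41 without low 1 and −1.28 without high 3. ZNF407 had a log2 fold change of −0.45 ± 0.25 (−0.69 without high 3, and −0.16 with the share of short identifiers as a covariate). ZNF106, ZNF330 and ZNF407 were each higher in every large library than in every other Shweta Kapila library. With the share of short identifiers as a covariate, the values were −0.21 for ZNF106 and −0.16 for ZNF330. ZNF546 had −1.49 ± 0.76, at 0.107 to 0.336 CPM in high-yielding and 0.368 to 0.799 CPM in low-yielding cows, which are 2 to 9 and 8 to 16 counts.

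**Figure D3:**
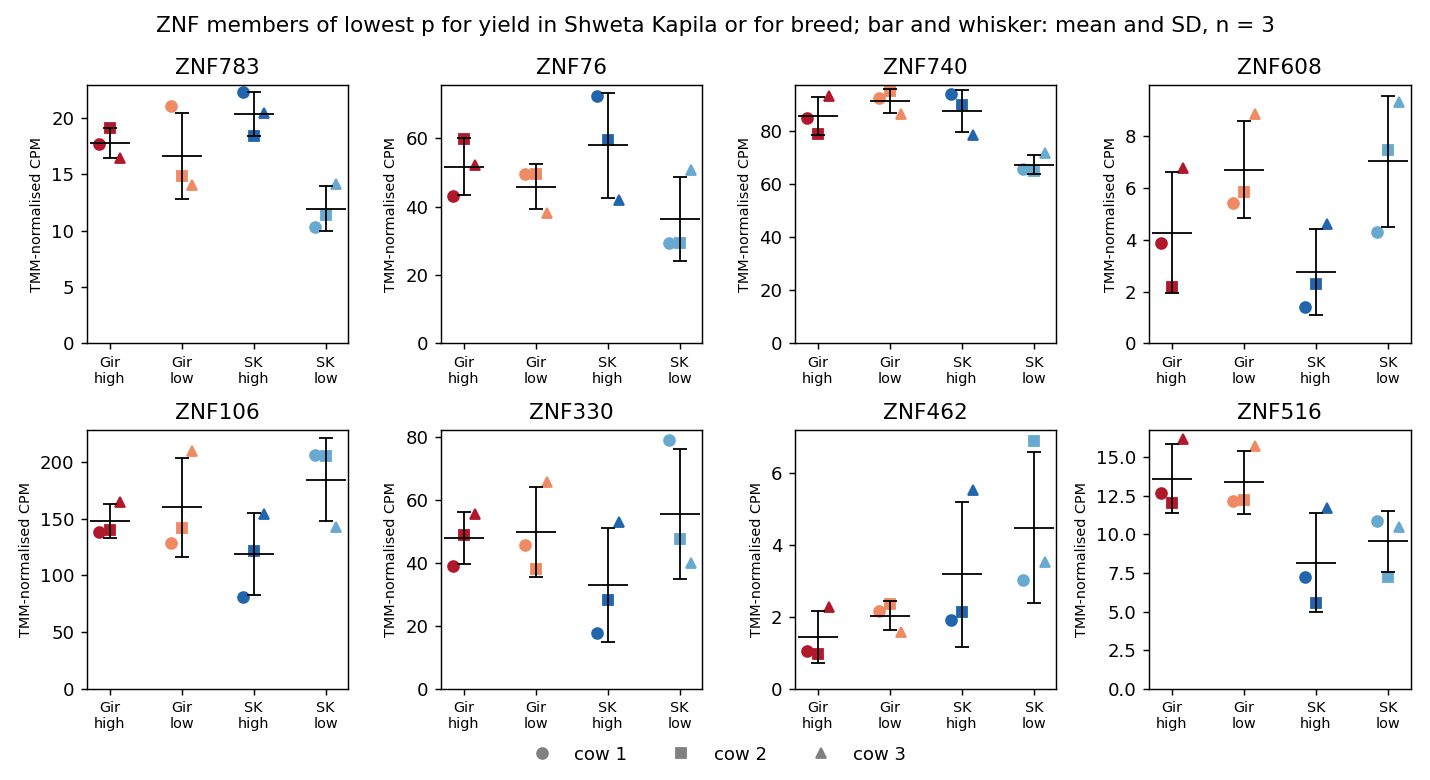
TMM-normalised CPM (y axis, linear from 0) of 8 ZNF members in each cow by group (x axis), with the mean and SD of 3 cows. ZNF783 and ZNF740 separate high-yielding from low-yielding Shweta Kapila cows, ZNF608 overlaps by 1 cow, and ZNF516 lies at 12.0 CPM or more in all 6 Gir cows and at 11.7 CPM or less in all 6 Shweta Kapila cows.

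In Gir, where the cows of a group lay closest together, no member passed either. For each gene the spread was estimated over all groups together, so the closeness of the Gir cows did not by itself set this test. The median SE of a member's log2 fold change was 0.3754 in Gir, beside 0.3746 in Shweta Kapila. The lowest adjusted p of a member was 1 (edgeR's quasi-likelihood test, 0% of all genes called). None of the 209 had an unadjusted p under 0.05, beside 1.17% higher and 0.713% lower of all genes. DESeq2 called 0 members and 0.00435% of all genes. The median log2 fold change was −0.06, with 86 members above and 123 below 0, beside −0.02 for all genes. Without Gir low 3 the members' median was 0.01.

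On the higher side in Gir, ZNF697 had 2.38, 1.25 and 3.56 CPM in high-yielding and 1.02, 1.26 and 1.34 CPM in low-yielding cows. Gir high 2 lay among the low-yielding cows, and the log2 fold change of 0.99 ± 0.46 became 0.58 without Gir high 3. ZNF618, which binds 5-hydroxymethylcytosine, had 15.2, 17.0 and 21.7 CPM in high-yielding and 13.6, 9.81 and 13.3 CPM in low-yielding cows, with no overlap (0.55 ± 0.29). ZNF821 had 15.6, 17.8 and 11.5 CPM in high-yielding and 8.15, 6.72 and 8.36 CPM in low-yielding cows, also with no overlap (0.95 ± 0.57). ZNF385A, an RNA-binding partner of p53, had 29.0, 39.1 and 64.1 CPM in high-yielding and 30.5, 15.2 and 31.1 CPM in low-yielding Gir cows, a log2 fold change of 0.78 ± 0.47 that was 0.41 without Gir high 3 and 0.52 without Gir low 2. For ZNF215 the log2 fold change of 1.62 ± 1.04 rested on Gir high 3 and was 0.18 without it. Monocyte markers had positive values in the same comparison, 4 of 4 with a median log2 fold change of 0.75 and 1 at an unadjusted p under 0.05, at summed levels of 425 to 546 CPM in high-yielding and 243 to 342 CPM in low-yielding Gir cows. Whether they bear on these members was not tested.

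On the lower side in Gir, ZNF829 had 3.43, 4.56 and 3.41 CPM in high-yielding and 5.50, 4.88 and 6.35 CPM in low-yielding cows (−0.55 ± 0.34), and ZNF12 had 35.4, 31.6 and 30.7 CPM in high-yielding and 37.2, 51.5 and 38.3 CPM in low-yielding Gir cows (−0.38 ± 0.24, −0.21 without Gir low 2). Neither overlapped between yield classes. ZNF641 had 6.91, 9.29 and 6.45 CPM in high-yielding and 10.2, 9.18 and 11.3 CPM in low-yielding cows, where Gir high 2 lay just above Gir low 2. ZNF529 (−1.22 ± 0.74) and ZNF354C (−1.12 ± 0.73) were under 3 CPM in every Gir cow, and their log2 fold changes became −0.63 and −0.57 without Gir low 3. That of ZNF529 was −2.26 without Gir high 2, and that of ZNF354C was −1.80 without Gir high 3 and −0.72 without Gir high 1. Without overlap between the yield classes of Gir stood 6 members on the higher side and 11 on the lower, beside 5.12% and 5.06% of all genes. The 11 included ZNF10, ZNF274 and ZNF445 of the KRAB list.

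The mean of the yield differences of both breeds uses the same cows again. No member passed (lowest adjusted p = 0.874, edgeR, with 0% of all genes called), and 2 members were higher and 1 lower at an unadjusted p under 0.05, beside 2.28% and 1.85% of all genes. DESeq2 called 0 members and 0.0174% of all genes. The members' median was 0.02, beside −0.01 for all genes. ZNF608 had the lowest p on the lower side, at 3.89, 2.17 and 6.76 CPM in high-yielding and 5.43, 5.82 and 8.84 CPM in low-yielding Gir cows, with the Shweta Kapila values given above. Its log2 fold change was −0.99 ± 0.36, negative in both breeds, with an unadjusted p of 0.0173 and an adjusted p of 0.874 (edgeR). ZNF783 had 0.43 ± 0.17, nearly all of it from Shweta Kapila, since its log2 fold change was 0.09 ± 0.24 in Gir. ZNF821 had 0.98 ± 0.41, but in Shweta Kapila it stood at 26.1, 4.69 and 4.11 CPM in high-yielding and 5.82, 4.69 and 6.62 CPM in low-yielding cows, so that 1 cow carried the difference there and the value was 0.29 without Shweta Kapila high 1. ZNF445, which with ZFP57 guards imprints in mouse and human embryos, had −0.28 ± 0.15, at 22.9, 20.8 and 23.5 CPM in high-yielding and 23.9, 26.8 and 30.0 CPM in low-yielding Gir cows, and 15.9, 22.5 and 19.9 CPM in high-yielding and 24.1, 21.8 and 25.3 CPM in low-yielding Shweta Kapila cows. The other members of lowest p were ZNF76 (0.42 ± 0.20), ZNF219 (1.21 ± 0.65, 2.11 without Shweta Kapila low 3) and ZNF215 (1.36 ± 0.73, 0.33 without Shweta Kapila high 3 and 0.64 without Gir high 3) on the higher side. On the lower side they were ZNF514 (−0.43 ± 0.22), ZNF106 (−0.37 ± 0.20) and ZNF268 (−0.53 ± 0.28, −0.32 without Gir low 3). Without the large libraries the log2 fold changes were 0.28 for ZNF76, 0.72 for ZNF219, 0.51 for ZNF215 and −0.32 for ZNF268. With the share of short identifiers as a covariate that of ZNF219 was 0.75.

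The yield difference itself was not shown to differ between the breeds for any member. In the test of the yield difference in Gir minus that in Shweta Kapila the lowest adjusted p of a member was 0.955 (edgeR, 0% of all genes called; DESeq2 called 0 members and 0.0348% of all genes), and 0 members were higher and 2 lower at an unadjusted p under 0.05, beside 1.46% and 2.35% of all genes. These 2 were ZNF304 and ZNF641. ZNF641 had log2 fold changes of −0.44 ± 0.28 in Gir and 0.48 ± 0.28 in Shweta Kapila, a difference of −0.92 ± 0.40 with an unadjusted p of 0.0392 and an adjusted p of 0.955 (edgeR). ZNF304 had 12.5, 16.7 and 12.4 CPM in high-yielding and 15.5, 19.1 and 18.3 CPM in low-yielding Gir cows, against the opposite direction in Shweta Kapila, a difference of −0.87 ± 0.37. ZNF783 (−0.68 ± 0.34), ZNF740 (−0.47 ± 0.25) and ZNF428 (−1.42 ± 0.81, −2.39 without Shweta Kapila low 3 and −0.36 with the share of short identifiers as a covariate) followed on that side. On the other side stood ZNF697 (1.39 ± 0.64), ZNF385A (1.06 ± 0.66, 0.69 without Gir high 3 and 0.45 without Shweta Kapila low 3), ZNF546 (1.69 ± 1.06), ZNF175 (0.96 ± 0.67) and ZNF106 (0.52 ± 0.39, 0.30 without Shweta Kapila high 1). For ZNF175, a KRAB gene induced in human macrophages by HIV, that value was 0.60 without Shweta Kapila high 1, 0.58 without Shweta Kapila low 1 and 1.48 without Gir low 3. Without the large libraries the differences were −0.43 for ZNF783, −0.74 for ZNF428, 0.76 for ZNF697, 1.91 for ZNF385A, 2.59 for ZNF546 and 0.63 for ZNF175.

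Between the breeds, Gir against Shweta Kapila over both yield classes, the members again passed nowhere (lowest adjusted p = 0.343, edgeR, with 0% of all genes called). At an unadjusted p under 0.05 stood 6 higher and 3 lower in Gir, 2.87% and 1.44% of members, beside 3.78% and 5.79% of all genes. DESeq2 called 0 members and 1.17% of all genes. The members' median was 0.05, with 116 above and 93 below 0, beside −0.04 for all genes. Breed cannot be told apart from anything else that differed between the 2 sets of animals.

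Exactly 1 member divided the breeds without overlap, beside 0.266% of all genes in that direction. ZNF516 (identifier 109577852), a partner of PRDM16 in the brown fat programme of mice, had 12.7, 12.0 and 16.2 CPM in high-yielding and 12.1, 12.2 and 15.8 CPM in low-yielding Gir cows. In Shweta Kapila it had 7.22, 5.55 and 11.7 CPM in high-yielding and 10.9, 7.27 and 10.5 CPM in low-yielding cows. The log2 fold change was 0.61 ± 0.22, with an unadjusted p of 0.0172 and an adjusted p of 0.415 (edgeR), and it stayed between 0.50 and 0.79 when single cows were left out. The gap was small, with the lowest Gir cow at 12.0 CPM and the highest Shweta Kapila cow at 11.7 CPM. ZNF839 had 41.3, 59.4 and 51.7 CPM in high-yielding and 49.8, 47.0 and 37.0 CPM in low-yielding Gir cows, against 54.5, 31.5 and 24.6 CPM in high-yielding and 26.5, 17.3 and 33.0 CPM in low-yielding Shweta Kapila cows. Only Shweta Kapila high 1 stood among the Gir cows, and the log2 fold change of 0.63 ± 0.23 became 0.35 without the large libraries. ZNF512B (0.78 ± 0.32, 0.38 without the large libraries), ZNF629 (0.58 ± 0.24), ZNF641 (0.45 ± 0.20) and ZNF3 (0.37 ± 0.17) completed the 6 higher members, the last named after its values were seen.

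Lower in Gir at an unadjusted p under 0.05 were ZNF462, ZNF277 and ZNF706. ZNF462 (identifier 109563317), a chromatin protein of pluripotent cells and the developing nervous system, had 1.05, 0.978 and 2.27 CPM in high-yielding and 2.17, 2.36 and 1.58 CPM in low-yielding Gir cows, against 1.90, 2.13 and 5.53 CPM in high-yielding and 3.02, 6.90 and 3.54 CPM in low-yielding Shweta Kapila cows. Shweta Kapila high 1 and high 2 lay within the range of the Gir cows. The log2 fold change was −1.15 ± 0.37, with an unadjusted p of 0.00864 and an adjusted p of 0.343 (edgeR), and it was −0.63 without the large libraries. ZNF277, a partner of the Polycomb protein BMI1, had a log2 fold change of −0.73 ± 0.28, which was −0.24 without the large libraries. ZNF706, a small protein that holds back self-renewal genes in mouse embryonic stem cells, had 39.3, 37.2 and 39.3 CPM in high-yielding and 38.4, 35.9 and 48.0 CPM in low-yielding Gir cows, against 42.9, 55.7 and 46.8 CPM in high-yielding and 71.1, 48.6 and 48.3 CPM in low-yielding Shweta Kapila cows (−0.39 ± 0.16). ZNF484 (−0.57 ± 0.26) and ZNF248 (−0.56 ± 0.27) came next, and without the large libraries they stood at 0.04 and −0.21. T cell markers had the same sign, 6 of 6 with a median log2 fold change of −0.63 and 5 at an unadjusted p under 0.05, and 3 of them passed without Shweta Kapila low 3. Their summed levels were 1602 to 1929 CPM in high-yielding and 1433 to 2409 CPM in low-yielding Gir cows, and 2992 to 4427 CPM in high-yielding and 1578 to 2810 CPM in low-yielding Shweta Kapila cows. Their part in the values of these members was not tested.

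Of the 12 cows left out in turn, only Shweta Kapila low 3 changed how many members passed. Without it, the test of yield in Shweta Kapila called 1 member, ZNF74 (log2 fold change 2.45 ± 0.29, SE; adjusted p = 0.0236, edgeR), where the value over all cows was 0.48 ± 0.68, and 0.0127% of all genes were called. At an unadjusted p under 0.05 then stood 60 members higher and 13 lower (28.7% and 6.22%), beside 19.3% and 12.4% of all genes. In the breed test without this cow 7 members passed, all higher in Gir: ZNF362 (1.04), ZNF646 (1.02), ZNF831 (1.07), ZNF74 (0.87), ZNF862 (0.92), ZNF687 (0.84) and ZNF746 (0.86), as log2 fold changes with adjusted p between 0.0227 and 0.0444 (edgeR), beside 2.84% of all genes called. The 7 were taken because they passed, and apart from the role list members ZNF687, ZNF746 and ZNF831 they were named after their values were seen. At an unadjusted p under 0.05 in that test stood 40 higher and 17 lower, 19.1% and 8.13% of members, beside 13.4% and 13.1% of all genes.

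What leaving out this cow did is plain in ZNF74. Its CPM was 36.1, 30.6 and 24.99 in high-yielding and 26.7, 31.4 and 24.6 in low-yielding Gir cows, against 44.3, 38.9 and 28.2 in high-yielding and 7.47, 6.12 and 66.2 in low-yielding Shweta Kapila cows. Shweta Kapila low 3 was the highest of all 12 cows, and low 1 and low 2 were the lowest. Without low 3, the low-yielding Shweta Kapila group consists of 2 of the 3 large libraries, so yield and library size can be told apart only through Shweta Kapila high 3. Shweta Kapila low 3 also had the highest B cell marker level, with a sum of 2405 CPM, against 565 to 992 CPM in the other 5 Shweta Kapila cows. ZNF362 had 17.8, 23.4 and 22.8 CPM in high-yielding and 27.4, 23.7 and 19.2 CPM in low-yielding Gir cows, against 16.2, 16.1 and 14.3 CPM in high-yielding and 5.65, 9.52 and 33.7 CPM in low-yielding Shweta Kapila cows, so that 5 Shweta Kapila cows lay below all Gir cows and low 3 above them. For ZNF646 low 3 was again above all Gir cows, with 32.1 to 49.1 CPM in Gir, against 37.1, 26.3 and 20.8 CPM in high-yielding and 12.8, 14.3 and 50.6 CPM in low-yielding Shweta Kapila cows.

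**Figure D4:**
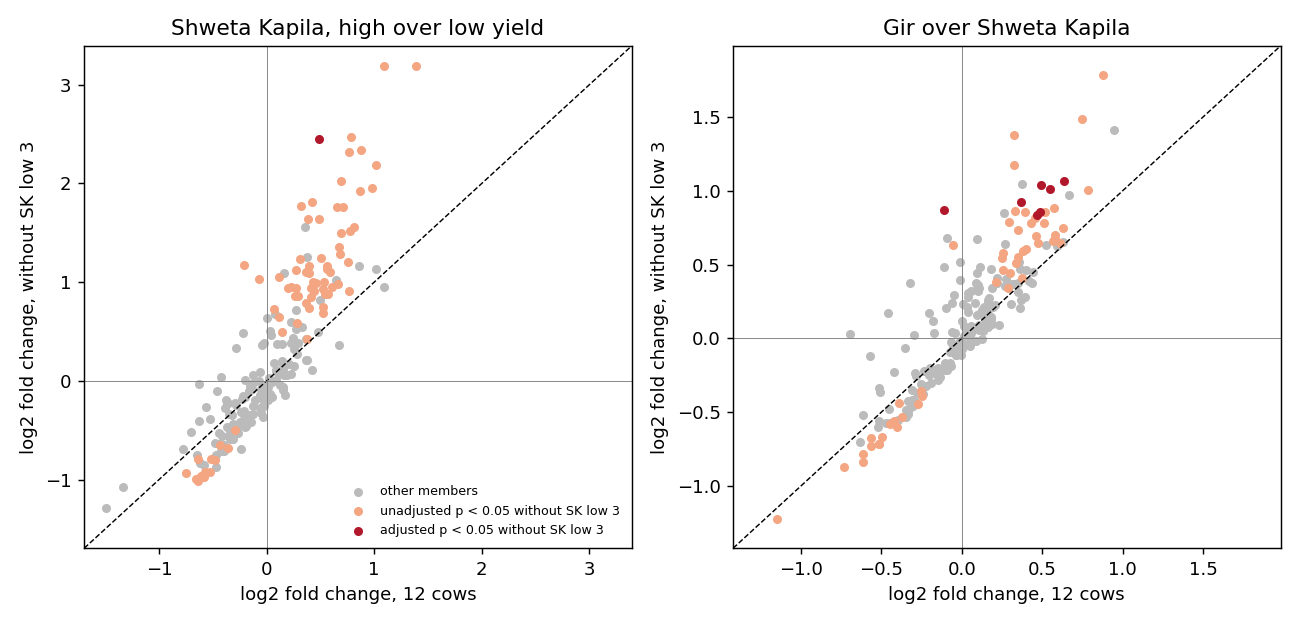
Log2 fold change of each of the 209 ZNF members without Shweta Kapila low 3 (y axis) against that over all 12 cows (x axis), for high over low yield in Shweta Kapila (left) and Gir over Shweta Kapila (right); the broken line marks equal values and colour the p-value class without the cow. In the left panel points above 0 lie mostly above the line, with ZNF74 at 0.48 over all cows and 2.45 without low 3.

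The members of best known function were described in 5 lists by role. The lists were 10 members tied to RNA and ribosomes, 10 of 11 listed partners of SUMO, spindle and chromatin factors, 7 of 9 promoter factors, 8 of 10 KRAB repressors with a known target and 8 of 10 genes of blood and immune cells. No member of any list passed in any of the 5 comparisons over all 12 cows by edgeR or by DESeq2, and without Shweta Kapila low 3 the SUMO, KRAB and blood lists had 1 called member each for breed. At an unadjusted p under 0.05 stood ZNF106 and ZNF608 lower and ZNF76 higher in high-yielding Shweta Kapila cows, ZNF608 lower with high yield over both breeds, and ZNF462 lower and ZNF516 higher in Gir (edgeR). By library size in Shweta Kapila, 10 list members were higher and 15 lower in the large libraries out of 43, beside 21.4% and 24.6% of all genes, with the blood and immune list at 0 higher and 4 lower.

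Among the RNA and ribosome members, ZNF598 (identifier 109578607), the ubiquitin ligase that marks collided ribosomes, had 34.8, 45.2 and 48.7 CPM in high-yielding and 35.7, 35.3 and 26.9 CPM in low-yielding Gir cows, against 64.9, 53.9 and 27.7 CPM in high-yielding and 19.6, 18.6 and 53.7 CPM in low-yielding Shweta Kapila cows. Its 3 lowest Shweta Kapila cows were the large libraries, and its log2 fold changes for yield were 0.39 ± 0.41 in Gir and 0.67 ± 0.41 in Shweta Kapila. ZNF622, a 60S ribosomal assembly factor, ranged between 45.3 and 70.0 CPM over all cows, at 58.0, 53.1 and 50.7 CPM in high-yielding and 51.8, 59.6 and 45.3 CPM in low-yielding Gir cows, and 70.0, 50.1 and 53.0 CPM in high-yielding and 48.7, 60.9 and 49.7 CPM in low-yielding Shweta Kapila cows. ZNF593, of the same pathway, had 5.00, 4.59 and 1.61 CPM in high-yielding and 0.445, 1.01 and 4.68 CPM in low-yielding Shweta Kapila cows. ZNF830, a splicing factor, kept between 27.3 and 38.1 CPM. ZNF346, which binds double-stranded RNA, had 4.97, 2.76 and 2.90 CPM in the large and 7.09, 8.00 and 10.5 CPM in the other Shweta Kapila libraries. ZNF473, which takes part in histone mRNA processing with the U7 particle, ranged between 3.29 and 8.22 CPM with no clear group.

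Of the SUMO, spindle and chromatin partners, ZNF451 is a SUMO ligase and ZNF207 a spindle protein that binds BUB3. ZNF207 had 357, 491 and 383 CPM in the large Shweta Kapila libraries and 173, 288 and 174 CPM in the others, and ZNF451 had 114, 119.5 and 92.2 CPM in the large and 67.7, 55.4 and 69.6 CPM in the other libraries. ZNF217, a breast cancer oncogene product that binds CtBP, had 127, 175 and 156 CPM in the large and 76.8, 112 and 95.5 CPM in the other libraries. All of them were higher in each large library than in each other one. ZNF335, a subunit of histone H3K4 methyltransferase complexes, went the opposite way, at 45.0, 24.1 and 35.4 CPM in the large and 86.3, 60.7 and 68.2 CPM in the other libraries, as did ZNF592 at 42.2, 24.8 and 31.7 CPM in the large and 53.4, 44.5 and 76.8 CPM in the other libraries. ZNF296 had 31.9, 18.0 and 23.6 CPM in the large and 54.3, 54.3 and 121 CPM in the other libraries, of which 121 CPM was Shweta Kapila low 3. ZNF827, which brings the NuRD complex to telomeres, ranged between 18.1 and 34.1 CPM over the 12 cows and did not split.

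Among the promoter factors, ZNF143, an activator and looping factor of many promoters, had 33.9, 40.1 and 53.3 CPM in high-yielding and 78.7, 68.9 and 35.0 CPM in low-yielding Shweta Kapila cows (log2 fold change −0.52 ± 0.31), where its relative ZNF76 had a value of 0.67 ± 0.28. In each large library, relative to each other Shweta Kapila library, ZNF143 was higher and ZNF76 lower. ZNF410, the factor that keeps CHD4 expressed, ranged between 69.5 and 106 CPM, and ZNF263 between 14.9 and 24.5 CPM. ZNF384 lay between 38.1 and 72.2 CPM and ZNF24 between 65.4 and 164 CPM, with yield and breed differences no larger than 0.24 on the log2 scale in either.

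Among the KRAB repressors with known targets, ZNF10, whose KRAB domain is widely used to silence genes in human cells, had 6.45, 6.52 and 5.27 CPM in high-yielding and 7.47, 6.98 and 7.50 CPM in low-yielding Gir cows. Those classes did not overlap, yet the log2 fold change was −0.27 ± 0.25 and did not pass. ZNF274, which brings SETDB1 to the 3′ ends of ZNF genes, had 15.5, 13.7 and 13.1 CPM in high-yielding and 16.6, 21.4 and 18.0 CPM in low-yielding Gir cows (−0.40 ± 0.33), and 16.6, 16.2 and 9.67 CPM in high-yielding and 6.71, 9.61 and 16.6 CPM in low-yielding Shweta Kapila cows. It was low in the large libraries. ZNF746, the parkin substrate that represses PPARGC1A, and ZNF202, a repressor of lipid transport genes, were low there too, ZNF746 at 13.97, 6.76 and 11.5 CPM in the large and 23.2, 15.3 and 27.4 CPM in the other libraries. ZNF331 ranged between 9.31 and 19.0 CPM. The breed log2 fold change was positive for 7 of these 8 members, with a median of 0.30, beside 0.05 for all members and −0.04 for all genes. None of the 8 had an unadjusted p under 0.05 (edgeR). The blood and immune list was alike, with 7 of 8 positive, a median of 0.27 and 1 at that level. Medians were −0.05 for the RNA and ribosome list, −0.15 for the SUMO list and −0.15 for the promoter factors.

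Among genes of blood and immune cells, ZNF683 (identifier 109573437), also called Hobit, a factor of tissue-resident T and NK cells, had 49.2, 68.6 and 50.5 CPM in high-yielding and 64.7, 34.9 and 76.0 CPM in low-yielding Gir cows. In Shweta Kapila it had 74.2, 120.4 and 72.5 CPM in high-yielding and 41.5, 39.6 and 99.6 CPM in low-yielding cows, and the groups overlapped. Its log2 fold changes were 0.56 ± 0.39 for yield in Shweta Kapila and −0.35 ± 0.28 for breed. Each large Shweta Kapila library lay below each other one, the closest being 72.5 CPM in high 3 and 74.2 CPM in high 1. NK and cytotoxic markers, of which 3 of 5 were past the filter, had summed levels of 100.4 to 249 CPM in high-yielding and 118 to 322 CPM in low-yielding Gir cows, and 513 to 856 CPM in high-yielding and 185 to 505 CPM in low-yielding Shweta Kapila cows. These 3 markers had negative breed values, each at an unadjusted p under 0.05 and with a median log2 fold change of −1.28, and 2 of them had positive yield values at that level in Shweta Kapila. Their part in the ZNF683 values was not tested. ZNF366, also called DC-SCRIPT, a dendritic cell factor, ranged between 5.12 and 9.59 CPM, and ZNF609 between 69.0 and 123 CPM, with a breed log2 fold change of 0.31 ± 0.15. ZNF831 had 6.46, 3.11 and 4.46 CPM in the large and 8.55, 9.81 and 13.0 CPM in the other Shweta Kapila libraries, ZNF395 had 43.2, 30.7 and 53.4 CPM in the large and 54.1, 64.8 and 83.1 CPM in the other libraries, and ZNF467 had 5.00, 1.73 and 4.00 CPM in the large and 7.22, 5.07 and 7.08 CPM in the other libraries. ZNF516 of the same list had 11.7, 10.9 and 7.27 CPM in the large and 7.22, 5.55 and 10.5 CPM in the other libraries and did not divide them.

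ZNF genes sit in clusters that arose by tandem duplication. Of the members, 74 lay directly beside another ZNF gene in the RefSeq order of the assembly NIAB-ARS_B.indTharparkar_mat_pri_1.0. Runs of neighbouring ZNF symbols numbered 32 and held 88 symbols, and some of these runs held no member. Of the 32 runs, 9 held at least 3 members. The run of ZNF581, ZNF580, ZNF784, ZNF865 and ZNF524 was lower in each large Shweta Kapila library than in each other one for 5 of its 5 members. ZNF524, which binds telomeric repeats, had 6.95, 3.78 and 5.38 CPM in the large and 29.7, 15.7 and 19.6 CPM in the other libraries, and ZNF865 had 5.90, 3.33 and 5.80 CPM in the large and 23.2, 13.8 and 23.7 CPM in the other libraries. In yield the 5 members were all above 0 in Shweta Kapila, at log2 fold changes of 0.37 to 0.86, and they lay between −0.30 and 0.38 in Gir. The run from ZNF584 to ZNF446 had 3 of 4 members lower in the large libraries, with ZNF132 the exception, and the run from ZNF786 to ZNF746 had 4 of 7. The run from ZNF146 to ZNF260 had 0 of 7 lower and 2 higher. The run from ZNF853 to ZNF12 had 2 of 3 lower. The runs from ZNF250 to ZNF34 and from ZNF140 to ZNF268 had 0 of 3 lower each, the latter with 1 higher. Those from ZNF568 to ZNF793 and from ZNF875 to ZNF570 had 0 of 4 lower each. Over all members 32.1% were lower in this way, beside 24.6% of all genes. Members of a run can share reads where their sequences are alike, and no run held a member that passed any test over all cows. These runs were described after their values were seen.

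**Figure D5:**
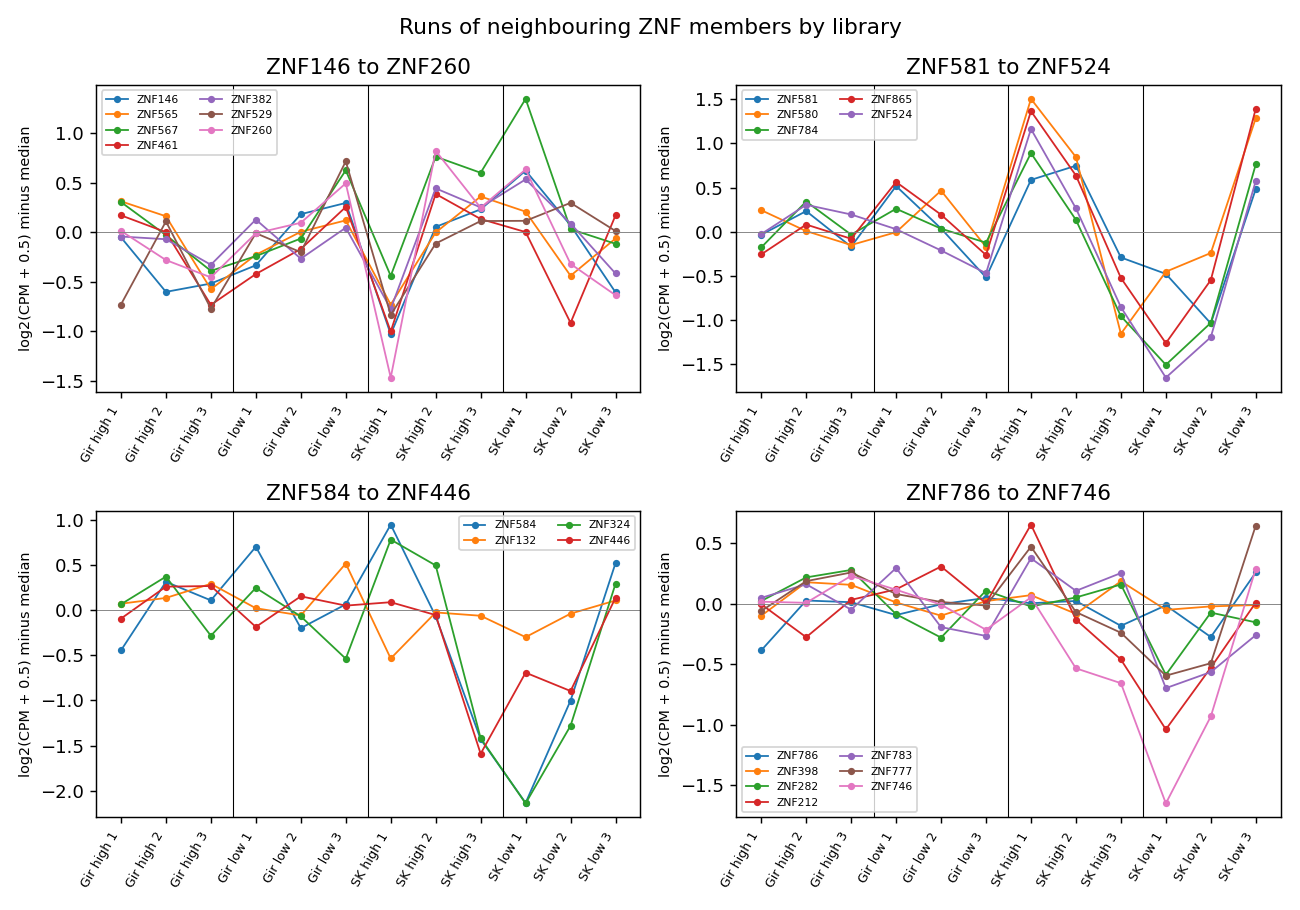
Lines give log2(CPM + 0.5) minus the median over 12 cows (y axis) of neighbouring ZNF members in each library (x axis, by group), in 4 runs; lines only join the points of a gene. All 5 members of the run from ZNF581 to ZNF524 are lower in Shweta Kapila high 3, low 1 and low 2 than in high 1, high 2 and low 3, while the 7 members of the run from ZNF146 to ZNF260 are lowest in Shweta Kapila high 1.

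The machinery that KRAB proteins recruit was measured beside them, as 18 of 19 listed corepressor genes. None of the 18 passed in any comparison over all 12 cows (edgeR, 0% of all genes called), and 1 passed for breed without Shweta Kapila low 3, beside 2.84% of all genes. TRIM28 itself had 165, 223 and 217 CPM in high-yielding and 198, 195 and 171 CPM in low-yielding Gir cows, and 268, 199.6 and 160.0 CPM in high-yielding and 111, 157 and 231 CPM in low-yielding Shweta Kapila cows. Its log2 fold changes were 0.10 ± 0.28 for yield in Gir, 0.33 ± 0.28 for yield in Shweta Kapila and 0.06 ± 0.20 for breed. In Shweta Kapila 15 of the 18 had a negative log2 fold change for yield, with a median of −0.31, beside 0.03 for the ZNF members and none of the 18 at an unadjusted p under 0.05. Without Shweta Kapila low 3 the median was −0.50, with 1 higher and 7 lower at that level, beside 19.3% and 12.4% of all genes. The lowest p-values were those of UHRF1, which binds hemimethylated DNA (−0.59 ± 0.28), the histone deacetylase HDAC2 (−0.75 ± 0.39) and the SETDB1 partner ATF7IP (−0.66 ± 0.38). HDAC2 had 49.9, 67.6 and 91.1 CPM in high-yielding and 176, 129 and 46.4 CPM in low-yielding Shweta Kapila cows, so that its high values were the large libraries. Of the 18 genes, 9 were higher and 2 lower in each large library than in each other Shweta Kapila library, beside 21.4% and 24.6% of all genes. For breed, HDAC2 (−0.65 ± 0.27), MORC2 (0.27 ± 0.13) and SETDB1 (0.27 ± 0.14) had the lowest p-values, and HDAC2 was the single corepressor gene at an unadjusted p under 0.05 in any of the 5 comparisons over all 12 cows. Without Shweta Kapila low 3, 1 was higher and 5 lower for breed at that level, beside 13.4% and 13.1% of all genes.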

How the data were processed

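Total RNA from blood was depleted of ribosomal RNA and made into strand-marked libraries for 12 cows, per the labels' protocols. The authors deposited expected counts per gene, of which 57.0% were not whole numbers (tolerance 1e-06), and 90.2% of the members' values were not. Trimmomatic and FastQC are named per the submitters' processing notes. For the aligner, counter, strand setting, build and annotation, names were not given in the sources used here, so reads of near-identical ZNF paralogues, and of overlapping or antisense genes, may be split between them in unknown ways. Symbols came from a RefSeq table, which matched 22754 of 26229 identifiers (86.8%). That table holds 253 ZNF symbols, of which 22 found no match among the identifiers and a further 22 had too few counts, so that neither set was analysed here.

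Counts were rounded and analysed with edgeR 4.0.16 in R 4.3.3. filterByExpr (minimum count 10) left 15420 genes. TMM scaling and a robust quasi-likelihood fit over all 12 libraries, with a mean per group, gave log2 fold changes with standard errors (SE) and 2-sided p-values, adjusted by Benjamini-Hochberg over 15420 genes at 0.05. All 5 comparisons share cows. P-values measure the spread between cows, estimated for each gene over all groups together. CPM values are TMM-normalised. DESeq2 1.42.0, other filters and scalings, covariates and left-out cows were alternatives. The code was tested on simulated data. Plots used matplotlib 3.10.9.

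Named members were the 5 of lowest p in each direction and comparison, the 10 of widest range at a median of 1 CPM or more, members of the role lists, and exceptions stated as such. Corepressors were named for the 3 of lowest p and TRIM28. The members, lists and rules were chosen with earlier results of these data known. Same-numbered cows did not pair across groups, with correlations of their deviations between −0.558 and 0.339.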

Additional observations from a re-analysis of the deposited data

Results flagged for a closer look

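ZNF706, the small regulator of self-renewal genes named among the members lower in Gir, had 48.0 CPM in Gir low 3, while the other 5 Gir cows lay between 35.9 and 39.3 CPM. The gap between this cow and the next, divided by the range of the 6 Gir cows, was above the 95% critical value of Dixon's test for 6 samples. Chance gives such a gap in about 1 of 20 groups. The members named for the breed comparison were screened in this way within each breed, and this was the only gap flagged. A lone flag from such a screen can arise by chance, so it does not set ZNF706 or this cow apart.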

How the results depend on the processing

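No member was called in any of the 5 comparisons under DESeq2, with no filter, with RLE scaling, with total count or short-identifier share as a covariate, or without the libraries above 22 M. Leaving out single cows gave 0 to 1 called members for yield in Shweta Kapila and 0 to 7 for breed, with 1 and 7 of them without Shweta Kapila low 3, and 0 to 0 in the other comparisons. Members at an unadjusted p under 0.05 numbered 0 to 3 (Gir), 1 to 73 (Shweta Kapila), 2 to 50 (both breeds), 0 to 44 (difference between breeds) and 5 to 57 (breed) over the left-out cows, beside 1.38% to 2.8%, 3.65% to 31.7%, 2.6% to 20.7%, 2.43% to 19.1% and 6.54% to 26.5% of all genes. Against 0, 4, 3, 2 and 9 such members over all cows, in that order, there were 3, 12, 7, 9 and 25 without the libraries above 22 M, 1, 19, 17, 3 and 16 with total count as a covariate, 3, 8, 5, 2 and 28 with the share of short identifiers, and 1, 6, 4, 3 and 16 by DESeq2. The shares of all genes under these 4 settings were 3.9%, 10.5%, 8.77%, 8.35% and 18.2%, then 3.15%, 12.9%, 10.2%, 5.8% and 13.5%, then 4.12%, 7.57%, 6.17%, 5.95% and 15.2%, and 1.95%, 8.66%, 4.03%, 3.65% and 12.1%. For DESeq2, genes at that level were counted before its own filter and divided by the genes left after it. That left 17205 genes for yield in Shweta Kapila and 15865 for breed, so 8.66% and 12.1% are upper bounds. These counts, and those of members without overlap under other scalings, were added after the data had been seen. Median log2 fold changes of the members lay between −0.07 and 0.01, −0.04 and 0.06, −0.03 and 0.04, −0.18 and −0.01, and 0.04 and 0.16 in the same order over the left-out cows. Over all the settings, total-count scaling among them, they lay between −0.09 and 0.01, −0.04 and 0.09, −0.03 and 0.04, −0.18 and −0.0018, and 0.02 and 0.16. A fit with the cow number as a replicate block called 0 members in each comparison, with medians of −0.05, 0.07, 0.02, −0.10 and 0.06, and so changed no call. Of 50 named values under 19 settings, 1 changed sign, ZNF484 for breed, at 0.037 without the libraries above 22 M against −0.57 over all, and the cause was not tested. With the share of short identifiers as a covariate, the yield values in Shweta Kapila were 0.19 for ZNF76, 0.21 for ZNF7, −0.21 for ZNF106 and −0.16 for ZNF330. For yield over both breeds they were 0.21 for ZNF76, 0.65 for ZNF821, −0.17 for ZNF106 and −0.24 for ZNF268, and for the difference between breeds 0.68 for ZNF697, 0.27 for ZNF175 and 0.08 for ZNF106. A count of 10 stood for up to 0.704 CPM, so members near 1 CPM rest on few reads, and 3 cows per group limit every comparison.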

Other observations

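Other zinc finger families were counted beside the ZNF members. None of 38 ZBTB genes, which carry a BTB domain for protein contacts, 15 KLF genes, which bind GC-rich promoters, 5 IKZF genes of lymphocyte development, 14 ZFP, 5 ZSCAN and 4 ZKSCAN genes passed in any of the 5 comparisons (edgeR). Nor did any of 18 ZC3H genes, whose CCCH fingers bind RNA, or 19 ZDHHC genes, which encode palmitoyltransferases. Without Shweta Kapila low 3, 1 ZBTB, 1 KLF and 1 IKZF gene passed for breed, beside 2.84% of all genes. At an unadjusted p under 0.05, 2 ZBTB genes were higher and 1 lower with yield in Shweta Kapila, beside 4.05% and 2.93% of all genes. Without Shweta Kapila low 3, 10 of the ZBTB genes were higher and 4 lower at that level, beside 19.3% and 12.4% of all genes. With yield in Gir 2 KLF genes were higher at that level, beside 1.17% of all genes and none of the ZNF members. The breed log2 fold change was positive for 5 of 5 ZSCAN genes, with a median of 0.40, beside 0.05 for the ZNF members and −0.04 for all genes, and 1 of the 5 had an unadjusted p under 0.05.

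The division of the 6 Shweta Kapila libraries by size was found in these families too. In each large library relative to each other one, 11 ZBTB genes were higher and 12 lower, 7 ZC3H genes were higher and 7 lower, 4 ZDHHC genes were higher and 7 lower, and 5 ZFP genes were higher and 1 lower. The ZNF members had 35 higher and 67 lower, and over all genes the shares were 21.4% and 24.6%. Whether the families differ in this was not tested.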
